A study of Mus musculus with 66 samples.

Results

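A set of 10 enzyme genes that write or help write the histone marks linked to the Paf1 complex were followed across a set of knock-downs in mouse muscle cells. They were the ubiquitin-conjugating enzymes Ube2a and Ube2b, the ubiquitin ligases Rnf20 and Rnf40, the H3K4 methyltransferases Setd1a and Setd1b with their core subunits Wdr5 and Ash2l, the H3K36 methyltransferase Setd2 and the H3K79 methyltransferase Dot1l. Members were found by gene symbol among the 18511 genes listed in either of the deposited tables. The RNA-seq table of 9999 genes held 7 of them, without Rnf20, Setd2 and Dot1l, and the 3'READS table of 15856 genes held 9, without Setd1b. Both tables held 6. The cells were C2C12, an established mouse myoblast line that can be made to fuse into myotubes, kept here as myoblasts. Every group received 50 nM siRNA by transfection for 48 h: a non-specific siRNA (siCtrl), or one against Paf1 (siPaf1), Cdc73 (siCdc73) or Ski8 (siSki8). Ski8 appears in the tables as Wdr61. In each assay siCtrl, siPaf1 and siCdc73 had 2 libraries, from batch 1 and batch 2, whereas siSki8 had 1 library, from batch 2. No source used here says that the batches were separate cultures, so the p-values measure the spread between these libraries, which may be technical, and the siSki8 comparison borrows its spread from the other groups.

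As background, ubiquitin is placed on histone H2B by an E2 enzyme, UBE2A or UBE2B (the RAD6 homologs), working with an E3 ligase made of RNF20 and RNF40. The Paf1 complex, which travels with RNA polymerase II, brings this machinery to transcribed genes. Ubiquitylated H2B can in turn stimulate DOT1L and the SET1 complexes. In the latter, SETD1A or SETD1B is the catalytic subunit and WDR5 and ASH2L belong to the shared core. SETD2 binds elongating polymerase and writes H3K36me3. For these myoblasts the study reports strongly reduced H2B ubiquitylation after Paf1 or Cdc73 depletion, without a significant change of H3K4me3, H3K36me3 or H3K79me3. It reports no effect of Ski8 depletion on H2B ubiquitylation. The tables measured transcripts of these genes and say nothing of the marks or the proteins. In bulk RNA of this kind, fewer cells of a type and less RNA per cell cannot be told apart.

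RNA-seq libraries held 2796693 to 8160386 reads over the listed genes, and 3'READS libraries held 5302728 to 14340927 PASS reads, that is, reads carrying the start of a poly(A) tail, each of which marks 1 transcript end. Levels are given as CPM, counts scaled to a common library size with TMM factors, always in the order batch 1, batch 2. Each siRNA target was lowest in its own knock-down. Paf1 RNA-seq levels were 106.8 and 159.8 CPM in siCtrl and 20.3 and 31.1 in siPaf1, Cdc73 levels were 109.3 and 98.4 in siCtrl and 14.2 and 22.0 in siCdc73, and Wdr61 levels were 49.8 and 129.2 in siCtrl and 5.97 in siSki8. Of the myoblast markers, Vim, Des, Cdh15 and Itga7 were present in every 3'READS library, Myf5 stood at 7.19 to 36.3 CPM (here without TMM factors), and Myod1 was near 0, at 0 to 0.598 CPM. The 6 markers of differentiated muscle summed to 62.8 to 504 CPM in 3'READS, lowest in siCdc73 batch 1 and highest in siPaf1 batch 2, while the 4 listed markers of other lineages summed to no more than 0.972. The part of the differentiated-muscle markers in the results below was not tested.

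With edgeR, the fit on the groups alone, without a batch term, called 0 percent of 6521 genes in RNA-seq and 0 percent of 12579 in 3'READS in every comparison, the siRNA targets included. An unadjusted p under 0.05 was reached there by 361 to 1377 genes in RNA-seq and 419 to 1929 in 3'READS, and DESeq2 without a batch term called 390 genes for siPaf1, 550 for siCdc73 and 5 for siSki8 in RNA-seq, and 496, 711 and 0 in 3'READS. Adding the batch as a block gave many calls with edgeR. Since the labels tie the replicate number to a batch, both values are given. A call is an adjusted p under 0.05 over all genes tested (edgeR, quasi-likelihood, Benjamini-Hochberg, unless DESeq2 is named). "Blocked" marks values of the fit with the batch, SE is the standard error of the log2 change, and "rose" or "fell" refers to blocked calls. A pair of blocked numbers in parentheses is the log2 change and its adjusted p. With the block, siPaf1 called 16.3 percent of all RNA-seq genes up and 16.2 percent down, siCdc73 19.4 percent up and 20.5 percent down, and siSki8 2.91 percent up and 2.5 percent down. In 3'READS the shares were 9.74 percent up and 9.08 percent down for siPaf1, 10.8 and 11.8 percent for siCdc73, and 0.0795 and 0.0715 percent for siSki8.

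Against these shares, 3 of the 7 enzyme genes in RNA-seq rose after siPaf1 and 3 rose after siCdc73 (Rnf40, Ube2a and Ube2b in both), and none fell. In 3'READS, 2 of 9 rose after siPaf1 (Rnf40 and Ube2b) and 3 of 9 rose after siCdc73 (Rnf20, Rnf40 and Ube2a), and none fell. No member was called after siSki8 in either assay, where all 7 and all 9 were tested. Without the batch term, 0 members were called by edgeR and 0 by DESeq2 in any comparison. In RNA-seq an unadjusted edgeR p under 0.05 was reached there by 2 of 7 members after siPaf1 and 2 of 7 after siCdc73. Over all 6521 genes tested it was reached by 1156 and 1377. In 3'READS it was reached by 0 of 9 and 1 of 9 members, beside 1703 and 1929 of 12579 genes. The median log2 change of the members in RNA-seq without the batch term was 0.50 for siPaf1 and 0.53 for siCdc73, beside 0.01 and -0.02 over all genes tested. In 3'READS it was 0.19 and 0.51, beside 0.06 and 0.00. Against siCtrl, the members whose expression was called in these edgeR fits all belong to the H2B ubiquitin step. No H3 methyltransferase or core subunit was called there, while Setd1a and Wdr5 were called in RNA-seq between siPaf1 and siCdc73. This split depends on the fit. For siCdc73 in RNA-seq, blocked DESeq2 and blocked edgeR with library size alone as the scaling each called 4 members. Rnf40, Ube2a and Ube2b were among them, so the calls were not of the H2B step alone.

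Expression was compared between members per unit length, by the authors' RPKM values of the RNA-seq table. In siCtrl, Ube2b was highest at 64.8 and 134.0 RPKM, followed by Ube2a at 42.6 and 76.2, Ash2l at 39.6 and 59.8, and Wdr5 at 39.2 and 24.9. Setd1a stood at 21.0 and 12.1 RPKM, Rnf40 at 12.3 and 6.26, and Setd1b at 13.7 and 3.91. The E2 genes were thus the most abundant and the ligase subunit Rnf40 and the catalytic subunits the least. Of the 6 neighbouring pairs in this order, 4 overlapped between the 2 batches. Ash2l with Wdr5 and Wdr5 with Setd1a did not, but in batch 1 Ash2l and Wdr5 were nearly equal, at 39.6 and 39.2 RPKM. In 3'READS, where each read is 1 transcript end, Rnf20 stood far above the others with a mean of 447.9 CPM in siCtrl, rank 366 of 15777 genes. Ube2b followed at 79.3 CPM, and Ube2a was lowest at 5.56 CPM, rank 7948. The assays therefore placed the E2 genes differently: Ube2a was second by RPKM and last by transcript ends.

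**Figure D1:**
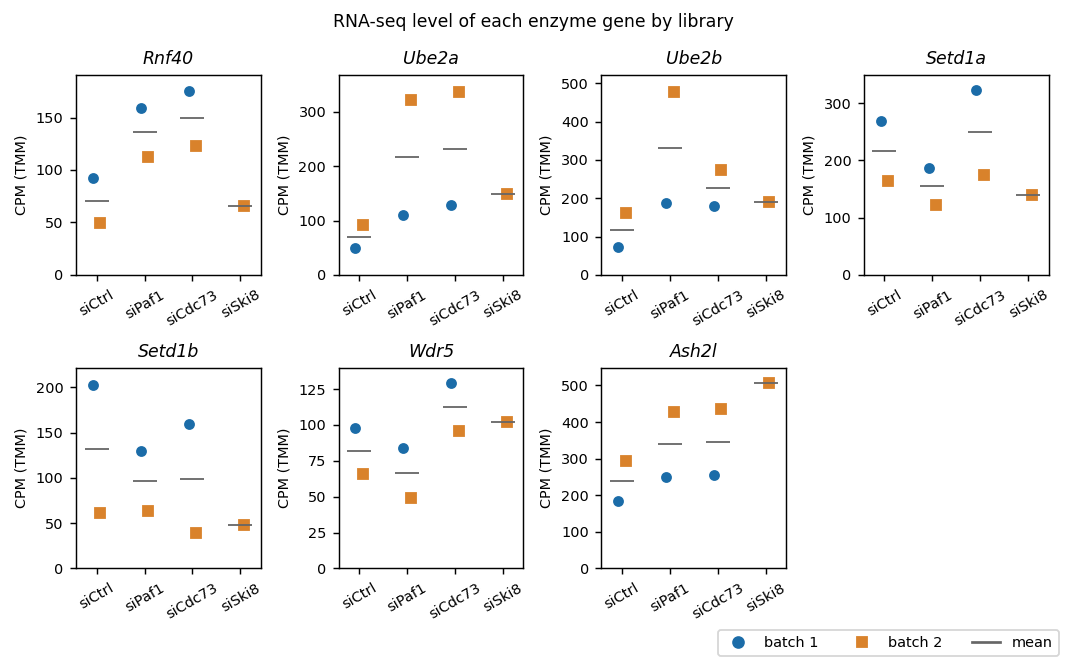
RNA-seq level (CPM after TMM scaling, linear axis from 0) of the 7 listed enzyme genes by group, with 1 point per library, circles for batch 1, squares for batch 2 and a line at the group mean. Rnf40, Ube2a and Ube2b lie above their own batch's siCtrl library in all 4 siPaf1 and siCdc73 libraries, while the batches themselves differ by up to several fold.

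The E2 gene Ube2a lies on chromosome X (chrX:34414353-34424210, plus strand of mm9, 6 exons). Its RNA-seq level was 48.6 and 91.8 CPM in siCtrl, 110.7 and 321.7 in siPaf1, 127.9 and 336.7 in siCdc73 and 148.6 in siSki8. All 5 knock-down libraries stood above both siCtrl libraries. How many of all genes show such a separation of groups was not counted, here or for the genes below. The log2 change was 1.62 for siPaf1 (SE 0.67, adjusted p = 0.272, and 1.50, SE 0.24, adjusted p = 1.78e-05, blocked) and 1.72 for siCdc73 (SE 0.68, adjusted p = 0.211, blocked 1.63 and 4.16e-06). For siSki8 it was 1.08 (SE 0.78, adjusted p = 0.781, blocked 0.50 and 0.366). Within batches the difference from siCtrl was 1.18 and 1.805 (log2) for siPaf1 and 1.39 and 1.87 for siCdc73, and 0.69 in batch 2 for siSki8. Transcript ends of Ube2a were few, at 3.75 and 7.37 CPM in siCtrl, 9.16 and 12.9 in siPaf1, 7.38 and 19.7 in siCdc73 and 12.7 in siSki8. The siCdc73 library of batch 1 was just above the higher siCtrl library. With the block, the 3'READS change was 1.04 for siPaf1 (adjusted p = 0.0609, not called) and 1.24 for siCdc73 (adjusted p = 0.0258, and 0.376 without the batch term). The latter call was lost with DESeq2 (adjusted p = 0.0652) and without siCtrl batch 1, siCtrl batch 2 or siCdc73 batch 2 (adjusted p = 0.0923, 0.16 and 0.408).

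Ube2b, its paralog on chromosome 11 (chr11:51798999-51813986, minus strand, 6 exons), codes for the other RAD6 homolog. Its RNA-seq level was 73.9 and 161.5 CPM in siCtrl, 186.5 and 477.7 in siPaf1, 179 and 273.2 in siCdc73 and 190.1 in siSki8. Again every knock-down library stood above both siCtrl libraries, but siCtrl itself was higher in batch 2, by 1.12 (log2). Within batch 2 the siSki8 library was 0.23 (log2) above siCtrl. The change was 1.50 for siPaf1 (SE 0.58, adjusted p = 0.245, blocked 1.46 and 2.19e-05) and 0.94 for siCdc73 (SE 0.58, adjusted p = 0.385, blocked 1.03 and 0.000991). The siCdc73 call was lost without siCdc73 batch 1 (0.72, adjusted p = 0.138). In 3'READS, Ube2b stood at 66.5 and 92.1 CPM in siCtrl, 156 and 159.2 in siPaf1, 99.9 and 158.1 in siCdc73 and 110.1 in siSki8. These groups did not overlap with siCtrl either. The 3'READS change blocked was 1.02 for siPaf1 (adjusted p = 0.018, and 0.372 without the batch term) and 0.69 for siCdc73 (adjusted p = 0.0853). The siPaf1 call was lost without siCtrl batch 1, siCtrl batch 2 or siPaf1 batch 1 (adjusted p = 0.131, 0.123 and 0.0752). Ube2a and Ube2b have coding regions of 459 bases each that match at 77.6 percent of positions, with no identical run over 17 bases, and the RNA-seq counts were made from uniquely mapped reads over coding regions.

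**Figure D2:**
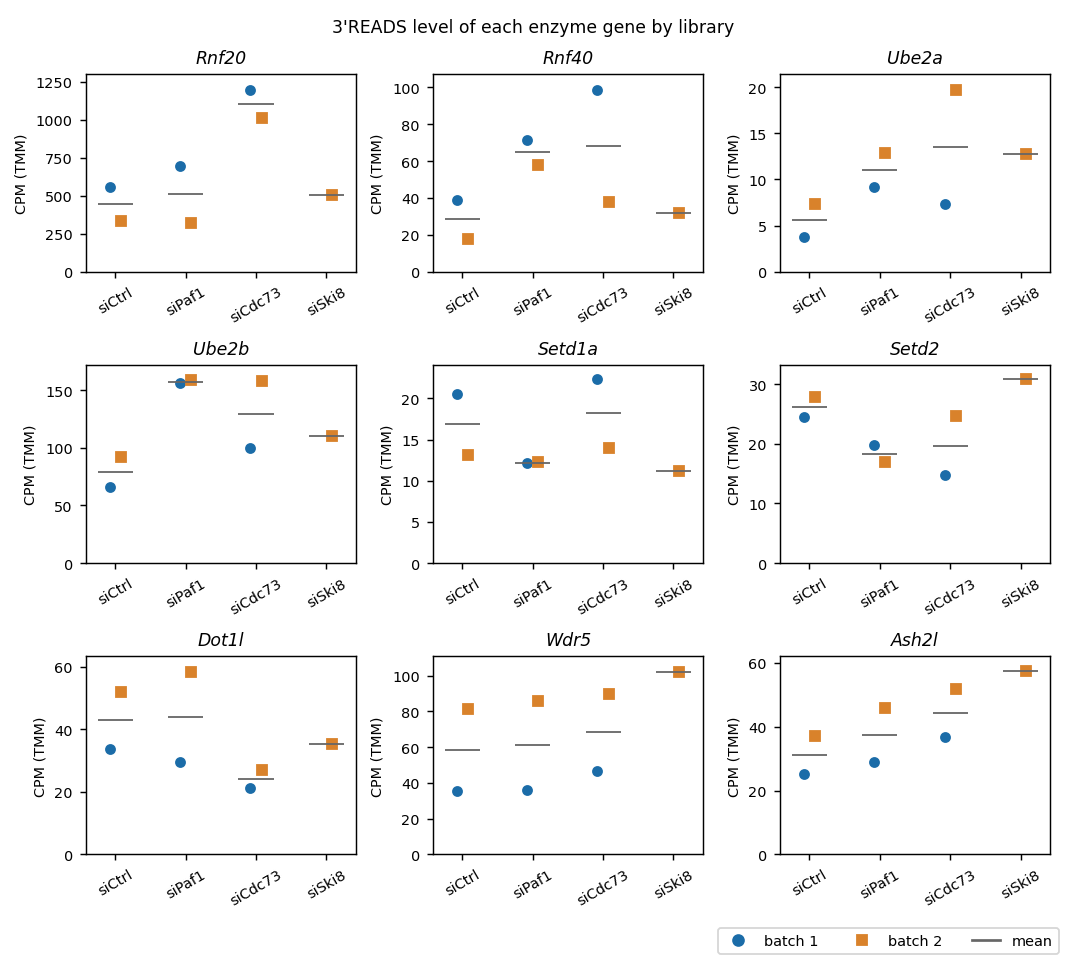
3'READS level (CPM after TMM scaling, linear axis from 0, all sense sites of a gene summed) of the 9 listed enzyme genes by group, drawn as in the RNA-seq plot with circles for batch 1, squares for batch 2 and a line at the mean. Rnf20 is at 1199 and 1012 CPM in siCdc73, above the other 5 libraries, which lie between 320.8 and 698.8.

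Of the E3 ligase subunits, Rnf20 (chr4:49644932-49669758, plus strand, 20 exons) has its single listed pA site at the annotated end of the gene. It was measured in 3'READS at 560.5 and 335.3 CPM in siCtrl, 698.8 and 320.8 in siPaf1, 1199 and 1012 in siCdc73 and 505 in siSki8. The siCdc73 libraries were the highest of the 7, and siPaf1 overlapped with siCtrl. Rnf20 rose after siCdc73 by 1.30 (log2, SE 0.53, adjusted p = 0.306), or by 1.36 blocked (SE 0.29, adjusted p = 0.00329). The change after siPaf1 was 0.19 (SE 0.52, adjusted p = 0.91, blocked 0.14 and 0.762). The direct comparison of siPaf1 with siCdc73 gave -1.12 (SE 0.52, adjusted p = 0.516), and blocked -1.22 (SE 0.29, adjusted p = 0.0113), the only member called in that comparison in 3'READS, where 8.08 percent of all genes were called up and 6.3 percent down. Both blocked calls were lost without siCdc73 batch 2 (adjusted p = 0.0959 against siCtrl and 0.235 between the knock-downs).

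Rnf40, the partner subunit, lies on chromosome 7 (chr7:134732212-134747119, plus strand, 20 exons), in the same region as Setd1a (chr7:134920184-134943636), and also has a single pA site. Its RNA-seq level was 92.0 and 49.45 CPM in siCtrl, 159.3 and 112.4 in siPaf1, 175.6 and 122.9 in siCdc73 and 65.8 in siSki8. The siPaf1 and siCdc73 libraries were all above both siCtrl libraries, and the siSki8 library lay between them. The change was 0.94 for siPaf1 (SE 0.44, adjusted p = 0.321, blocked 0.98 and 0.00215) and 1.08 for siCdc73 (SE 0.44, adjusted p = 0.22, blocked 1.11 and 0.000458). In 3'READS, Rnf40 stood at 39.15 and 17.8 CPM in siCtrl, 71.6 and 57.9 in siPaf1, 98.4 and 38.0 in siCdc73 and 31.6 in siSki8. The siCdc73 library of batch 2 fell within the siCtrl range, although it stood above siCtrl of its own batch. With the block the 3'READS change was 1.32 for siPaf1 (adjusted p = 0.0081, and 0.437 without the batch term) and 1.22 for siCdc73 (adjusted p = 0.0103, and 0.381 without it). In 3'READS, Ube2a was not called after siPaf1 (blocked adjusted p = 0.0609) nor Ube2b after siCdc73 (0.0853), and neither was compared with Rnf40. Of the 6 members in both tables, Rnf40 is thus the only one called after both knock-downs in both assays. These calls depended on siCtrl batch 2: without it the adjusted p was 0.134 and 0.0504 in RNA-seq and 0.113 and 0.0886 in 3'READS, for siPaf1 and siCdc73. In 3'READS the siPaf1 call was also lost without siPaf1 batch 2 (0.0878) and the siCdc73 call without siCdc73 batch 1 (0.158).

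**Figure D3:**
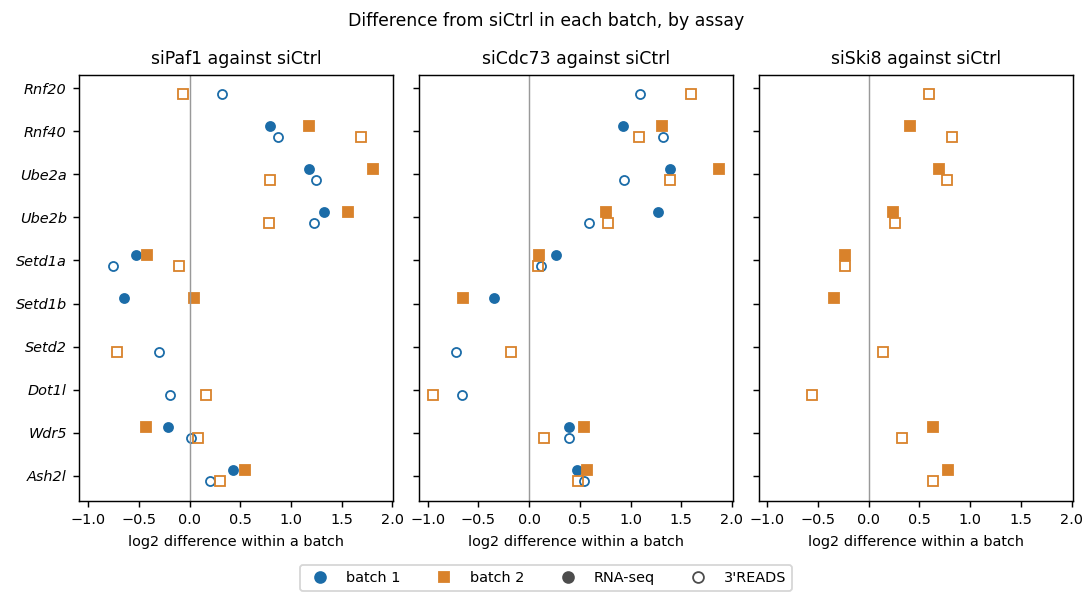
Difference from siCtrl within each batch (log2 of the TMM-scaled CPM with a prior count of 2) for the 10 enzyme genes, in 1 panel per knock-down, with circles for batch 1, squares for batch 2, filled for RNA-seq and open for 3'READS. For Rnf40, Ube2a and Ube2b all points of siPaf1 and siCdc73 lie above 0.5, while Setd1a, Setd1b, Setd2 and Dot1l lie at or below 0.2615 in all panels.

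The catalytic subunits of the SET1 complexes gave no call against siCtrl. Setd1a stood at 269.6 and 164 CPM in siCtrl, 187.2 and 122.5 in siPaf1, 323.2 and 174.9 in siCdc73 and 139 in siSki8 in RNA-seq. In each batch the siPaf1 library was the lower and the siCdc73 library the higher of the knock-downs. The change against siCtrl was -0.48 for siPaf1 (SE 0.46, adjusted p = 0.657, blocked adjusted p = 0.114) and 0.20 for siCdc73 (SE 0.46, adjusted p = 0.836, blocked adjusted p = 0.55). The direct comparison of siPaf1 with siCdc73 gave -0.69 (adjusted p = 0.543), and -0.66 blocked (SE 0.23, adjusted p = 0.033). In this RNA-seq comparison the block called 14.6 percent of all genes up and 13.6 percent down, and 2 of 7 members down. The Setd1a call was lost with library size alone as the scaling (adjusted p = 0.131) and without siCtrl batch 2, siPaf1 batch 1, siCdc73 batch 1 or siCdc73 batch 2 (0.052, 0.0712, 0.325 and 0.199). In 3'READS, Setd1a stood at 20.55 and 13.1 CPM in siCtrl, 12.1 and 12.2 in siPaf1, 22.4 and 14.0 in siCdc73 and 11.15 in siSki8, and the direct comparison blocked gave -0.51 (SE 0.33, adjusted p = 0.31). Setd1b (chr5:123592202-123617444, 17 exons) varied more between batches than between groups, with 202.7 and 61.2 CPM in siCtrl, 129.4 and 63.2 in siPaf1, 159.3 and 38.9 in siCdc73 and 48.0 in siSki8. Its adjusted p was 0.388 for siPaf1, 0.139 for siCdc73 and 0.506 for siSki8 with the block.

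Of the core subunits, Wdr5 (chr2:27370677-27392055, 14 exons), the WD40 protein that docks the histone tail, stood at 98.0 and 65.8 CPM in siCtrl, 84.3 and 48.85 in siPaf1, 129 and 96.1 in siCdc73 and 102 in siSki8 in RNA-seq. Both siCdc73 libraries were above both siPaf1 libraries. Against siCtrl the change blocked was -0.31 for siPaf1 (adjusted p = 0.341) and 0.47 for siCdc73 (adjusted p = 0.114). The direct comparison gave -0.78 blocked (SE 0.24, adjusted p = 0.0166, and 0.474 without the batch term), lost with library size alone (0.063) and without siPaf1 batch 2, siCdc73 batch 1 or siCdc73 batch 2 (0.0538, 0.0815 and 0.269). In 3'READS the levels were 35.4 and 81.3 CPM in siCtrl, 35.9 and 86.1 in siPaf1, 46.7 and 89.8 in siCdc73 and 102.2 in siSki8. Here every batch 2 library was above every batch 1 library, and the direct comparison blocked was -0.22 (SE 0.27, adjusted p = 0.631). Ash2l (chr8:26926663-26951251, minus strand, 16 exons) rose in no comparison. Its RNA-seq level was 184.3 and 293.8 CPM in siCtrl, 248.8 and 428.5 in siPaf1, 255.3 and 435.3 in siCdc73 and 505.4 in siSki8, with adjusted p values of 0.0901, 0.061 and 0.113 with the block. In 3'READS it stood at 25.2 and 37.1 CPM in siCtrl, 29.0 and 45.7 in siPaf1, 36.7 and 51.7 in siCdc73 and 57.45 in siSki8 (0.551, 0.202 and 0.525). Every knock-down library of Ash2l was above siCtrl of its own batch in both assays.

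The H3K36 and H3K79 enzymes were measured by 3'READS alone. Setd2 (chr9:110435101-110521137, 21 exons) stood at 24.45 and 27.9 CPM in siCtrl, 19.75 and 16.9 in siPaf1, 14.8 and 24.6 in siCdc73 and 30.8 in siSki8. Both siPaf1 libraries were below both siCtrl libraries, with a change of -0.51 (SE 0.41, adjusted p = 0.625, blocked adjusted p = 0.273). Dot1l (chr10:80217951-80255483, 30 exons) stood at 33.75 and 52 CPM in siCtrl, 29.6 and 58.4 in siPaf1, 21.3 and 26.9 in siCdc73 and 35.15 in siSki8. Both siCdc73 libraries were the lowest of their batch. The change was -0.83 for siCdc73 (SE 0.48, adjusted p = 0.464, blocked -0.81 and 0.055) and 0.04 for siPaf1 (adjusted p = 0.985), and the direct comparison blocked gave 0.82 (adjusted p = 0.0705). Neither gene was called in any comparison.

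The enzyme genes had 36 pA sites among the 59578 in the table: 26 in the 3'-most exon, 6 in introns, 4 upstream and antisense, and 0 in internal exons. No member site was shared with another gene. By the reference annotation of the same build, 20 of the 26 lay in the 3'UTR of the gene's transcript with the longest coding region. The other 6 lay downstream of the end of that transcript. For Dot1l it ends at the stop codon, so both Dot1l sites were among these 6. A poly(A) signal, the hexamer that CPSF recognises before the cleavage position, was searched as AATAAA or ATTAAA in the 40 bases before each site, on the strand of the transcript. Of the 26 sites, 9 had AATAAA, 3 had ATTAAA alone and 14 had neither. Over all 38550 sites of this type 43.3 percent had AATAAA and 58.6 percent had either. With so few member sites, a difference from these shares was not tested. The genomic sequences below are shown because they mark the sites whose use is compared next, 5′ to 3′ on the transcript strand in mm9, with the hexamer in capitals. All end at the cleavage position except that of Rnf40, which ends 10 bases before it so that the hexamer is seen.
Rnf20 single site, chr4:49669729-49669758, plus: tgtgcttcaATTAAAgcaggattcaggttg
Rnf40 single site, chr7:134747073-134747102, plus: attgttatgAATAAAatacccaaccctagg
Ube2a main site, chrX:34423223-34423252, plus: tttATTAAAaacaaaatagctgttgtgctg
Ube2b proximal, chr11:51799886-51799915, minus: gacagaatatacacattttgtaaatctgta
Ube2b distal, chr11:51799760-51799789, minus: aagctgttaaaatacataacttcagtgcaa
Wdr5 proximal, chr2:27390802-27390831, plus: tttctggaaacacagaaaggttgtaagttg
Wdr5 distal, chr2:27392026-27392055, plus: tttaaaAATAAAgattttcatgccttgtaa
Dot1l proximal, chr10:80256416-80256445, plus: aagtatttatctttttttttttttaaagta
Dot1l distal, chr10:80258177-80258206, plus: agtataataAATAAAgccgttttcacttga
Ash2l proximal, chr8:26927790-26927819, minus: tttttataaagtgtcaaatgttttccaaga
Ash2l distal, chr8:26927349-26927378, minus: ttcctccAATAAAacttgttttcaagcttg
Setd1a intron 4, chr7:134925388-134925417, plus: gagtgctagaATTAAActgttttaattgtt
In all 4 genes with a testable pair, the proximal site held neither hexamer, and the distal site held AATAAA in Wdr5, Dot1l and Ash2l but not in Ube2b. A missing hexamer says only that these letters are not in this window.

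Alternative polyadenylation (APA) in the 3'UTR was compared through the proximal to distal ratio of the 2 leading sites in the last exon, and 4 members had such a pair: Wdr5, Ube2b, Dot1l and Ash2l. Without the batch term 0 of the 4 were called in any comparison, as were 0 percent of the 4567 genes tested. With the block, the shares called over all genes were 6.79 percent for siPaf1, 4.29 percent for siCdc73, 0.307 percent for siSki8 and 2.08 percent between siPaf1 and siCdc73. Among the members, Wdr5 was called for siCdc73 and between siPaf1 and siCdc73, and no other member was called. At an unadjusted p under 0.05, 0 of the 4 passed without the batch term.

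The proximal Wdr5 site lies 457 nt and the distal site 1681 nt after the end of the coding region, 1224 nt apart in exon 14. The proximal share of the pair was 15.8 percent (30 of 190 reads, 95 percent Wilson interval 11.3 to 21.65) and 3.45 percent (interval 2.40 to 4.94) in siCtrl, and 12.5 percent (8.995 to 17.1) and 3.68 percent (2.77 to 4.88) in siPaf1. In siCdc73 it was 32.7 percent (26.0 to 40.2) and 11.98 percent (10.2 to 14.0), and in siSki8 7.10 percent (5.51 to 9.11). The intervals cover counting error only. Within each batch the siCdc73 share was the highest, while batch 1 exceeded batch 2 in each group that had both. The log2 change of the ratio for siCdc73 was 1.63 (SE 1.13, adjusted p = 1), and 1.66 blocked (SE 0.52, adjusted p = 0.0412). For siPaf1 it was -0.16 (SE 1.14, adjusted p = 1, blocked adjusted p = 0.935), and the direct comparison of siPaf1 with siCdc73 gave -1.79 (adjusted p = 1) and -1.80 blocked (adjusted p = 0.0343). In single batches the siCdc73 difference was 1.36 and 1.91 on the log2 scale. For siSki8 the change was -0.10 without the batch term and 0.91 blocked (adjusted p = 1 and 0.791).

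**Figure D4:**
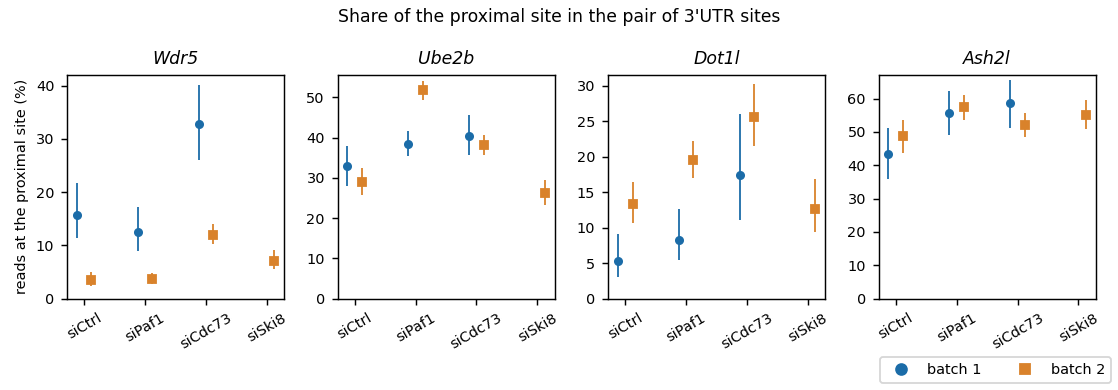
Share (percent) of the proximal site among reads of the pair of 3'UTR sites in each library, for 4 genes, with circles for batch 1, squares for batch 2, and bars for 95 percent Wilson intervals of counting error. In Wdr5 the siCdc73 libraries, at 32.7 and 11.98 percent, are the highest of their batches, above siCtrl at 15.8 and 3.45 percent.

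The siCdc73 call on Wdr5 was lost without either siCtrl library or either siCdc73 library (adjusted p = 0.25 and 0.761, then 0.126 and 0.305), and the direct call on leaving out any 1 of the 6 libraries of siCtrl, siPaf1 and siCdc73 (0.0891 to 0.442).

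In the other 3 genes the ratio of proximal to distal reads was above siCtrl of the same batch in all siPaf1 and siCdc73 libraries, without a call. Over all 4567 genes the median change of this ratio was 0.30 for siPaf1, 0.40 for siCdc73 and 0.37 for siSki8. Without the batch term the change was above 0 in 61.3, 66.6 and 63.85 percent of these genes, so this direction was the usual one. Ube2b used 6 sites of its last exon, and the tested pair lay only 126 nt apart. Proximal and distal Ube2b reads were 110 and 225 in siCtrl batch 1 and 205 and 502 in batch 2, 364 and 581 then 845 and 788 in siPaf1, and 150 and 220 then 592 and 961 in siCdc73, with 189 and 531 in siSki8. The proximal site exceeded the distal one only in siPaf1 batch 2. The log2 change was 0.88 for siPaf1 (SE 0.61, adjusted p = 1, blocked adjusted p = 0.298), 0.54 for siCdc73 (blocked adjusted p = 0.643) and -0.33 for siSki8 (0.972). The Dot1l sites lay 965 and 2726 nt after the coding region, both beyond the annotated transcript used, which ends at the stop codon. Proximal and distal Dot1l reads were 12 and 213 then 73 and 477 in siCtrl, and 19 and 210 then 172 and 711 in siPaf1. They were 17 and 81 then 97 and 282 in siCdc73, and 39 and 270 in siSki8. The change was 0.66 for siPaf1 and 1.50 for siCdc73 (SE 0.84 and 0.84, adjusted p = 1 for both, and 0.603 and 0.161 blocked). For Ash2l the reads were 68 and 89 then 180 and 190 in siCtrl, 121 and 96 then 388 and 287 in siPaf1, 99 and 70 then 378 and 349 in siCdc73, and 277 and 225 in siSki8. The distal site led in both siCtrl libraries and the proximal site in all 5 knock-down libraries, with changes of 0.62 for siPaf1, 0.53 for siCdc73 and 0.53 for siSki8 (adjusted p = 1 for each, and 0.603, 0.723 and 0.944 with the block). The Wilson interval of the proximal share included equal use in both siCtrl libraries (35.8 to 51.1 and 43.6 to 53.7 percent). It also did in siPaf1 batch 1 (49.1 to 62.2) and siCdc73 batch 2 (48.4 to 55.6), but not in the remaining knock-down libraries.

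**Figure D5:**
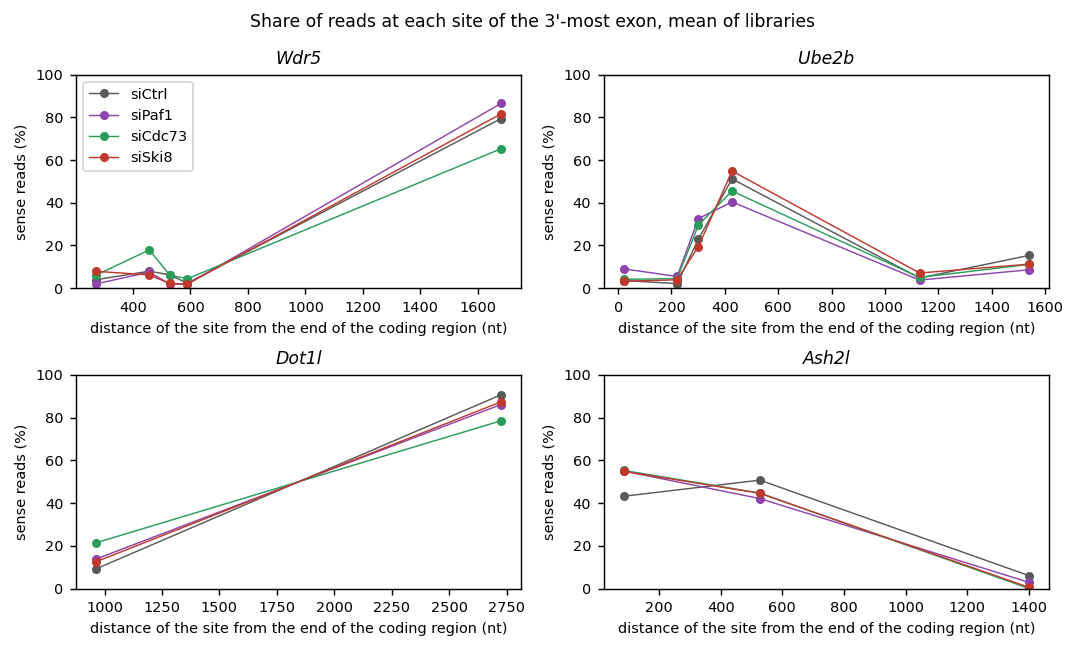
Share (percent) of a gene's sense reads at each site of the 3'-most exon against the distance of the site from the end of the coding region (nt), as the mean of the libraries of each group (1 library for siSki8), for Wdr5, Ube2b, Dot1l and Ash2l. Wdr5 and Dot1l send most reads to their last site, at 1681 and 2726 nt, and this share is lowest in siCdc73, while Ube2b centres on the sites at 301 and 427 nt.

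The most distal Ash2l site, 1400 nt after the coding region and below the 5 percent filter, was outside the tests. It held 11 and 22 reads in siCtrl, 8 and 16 in siPaf1, 0 and 1 in siCdc73 and 3 in siSki8. These reads were fewest in siCdc73 and were not tested. Its upstream sequence shared a 28-base run, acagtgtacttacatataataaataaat, with the site in intron 13 of Setd1a, the longest run that the searched bases of sense sites of different member genes have in common. The same run stood before 284 of 16766 intronic sites (1.69 percent), 52 of 3295 upstream antisense sites and 20 of 38550 sites of 3'-most exons (0.0519 percent). No repeat annotation was used, and the part of the run in these reads was not tested.

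Sites upstream of the last exon were weakly used in the enzyme genes. After the 5 percent filter, 0 members had reads for the comparison of all upstream sites with the 3'-most exon (CDS-APA). Single intronic sites with at least 20 reads in all were tested against all other sense reads of the gene, and 3 member sites qualified, in intron 18 of Setd2 and introns 4 and 13 of Setd1a. The fit without the batch term called 0.434 percent of 4143 sites for siPaf1, 0.99 percent for siCdc73 and 0 percent for siSki8. With the block it called 14.6, 16.3 and 0 percent. Among the 3 member sites, none was called without the batch term and 1 was called for siCdc73 with the block.

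This was the site in intron 4 of Setd1a, 5233 nt from the TSS. It had 0 reads of 137 sense reads in siCtrl batch 1, which allows a share of up to 2.19 percent, and 1 of 139 in batch 2. There were 3 of 94 and 3 of 185 in siPaf1, 3 of 103 and 23 of 197 in siCdc73, and 0 of 98 in siSki8, which allows up to 3.06 percent. The 23 reads in siCdc73 batch 2 made up most of the 33 in all. The log2 change for siCdc73 was 4.07 (SE 1.66, adjusted p = 0.214) and 4.14 blocked (SE 1.57, adjusted p = 0.0498), and for siPaf1 it was 2.50 (SE 1.74, adjusted p = 0.505, blocked adjusted p = 0.374). The blocked call was lost on leaving out any 1 of the 6 libraries of siCtrl, siPaf1 and siCdc73 (adjusted p 0.0663 to 0.605), the highest p being without siCdc73 batch 2. With so few siCtrl reads, these fitted changes depend on the prior count of the fit, which was left at the edgeR default. The intron 13 site of Setd1a had 12 and 3 reads in siCtrl, 5 and 7 in siPaf1, 2 and 6 in siCdc73 and 6 in siSki8, and the intron 18 site of Setd2 had 5 and 16, 9 and 7, 6 and 9, and 3. Neither site moved in 1 direction in both batches after siPaf1 or siCdc73.

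Upstream antisense reads were listed for Setd1a and Setd2. Setd1a had 8 and 15 such reads in siCtrl, 7 and 18 in siPaf1, 1 and 19 in siCdc73 and 8 in siSki8, from 3 sites. Setd2 had 0 and 9 in siCtrl, 1 and 56 in siPaf1, 8 and 1 in siCdc73 and 4 in siSki8, from a site 999 nt upstream of the TSS. Of the 79 Setd2 antisense reads 56 came from siPaf1 batch 2. In Setd2 both batches lay above siCtrl after siPaf1, but after siCdc73 one lay above and the other below. Against sense reads, the log2 change for siPaf1 was 0.10 in Setd1a (SE 1.67, adjusted p = 0.994) and 2.19 in Setd2 (SE 2.24, adjusted p = 0.774), and neither was called blocked for siPaf1 (1 and 0.443) or siCdc73 (0.766 and 0.756). Over all 867 genes with such reads, 0.115 percent were called for siPaf1 and 0.346 percent for siCdc73, and 3.11 and 3.34 percent with the block.

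Other genes of these pathways were counted by list, with the same calls, to be read beside the shares over all genes given above. Without the batch term none was called by edgeR, while DESeq2 called Kdm5b in RNA-seq (adjusted p = 1.61e-06 for siPaf1 and 1.55e-06 for siCdc73) and, in 3'READS, Usp49 (0.00357 and 0.00325) and Whsc1 (0.0455 and 0.0333) for both, Nsd1 for siPaf1 (0.0358) and Kdm5c for siCdc73 (0.0169). Of 12 partners of the H2B ligase and deubiquitylases, 6 were tested in RNA-seq with 0 calls in every comparison, and 10 in 3'READS. Usp49, an H2B deubiquitylase, fell in 3'READS: siCtrl had 477.4 and 251.3 CPM, siPaf1 100.3 and 81.3, siCdc73 79.5 and 102.1, and siSki8 170.4. These changes were -1.97 and -1.94 blocked (adjusted p = 0.000589 and 0.000704, and 0.211 and 0.16 without the batch term). Usp22, the deubiquitylase subunit of SAGA, rose after siPaf1 from 3.00 and 9.45 CPM to 9.81 and 29.2 (1.66, adjusted p = 0.00339 with the block, 0.442 without), and Usp7 fell after siCdc73 from 30.3 and 44.4 to 23.0 and 17.4 CPM (-0.92, adjusted p = 0.0495 with the block, 0.371 without). So this list held 1 gene up and 1 down for siPaf1 and 2 down for siCdc73 in 3'READS, with median changes of -0.58 and 0.04 beside 0.06 and 0.00 over all genes.

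Of 16 other H3K4 methyltransferase subunits, 14 were tested in 3'READS with 0 calls in every comparison, and 5 in RNA-seq. There, Kdm6a rose and Ncoa6 fell after siCdc73 (0.65 and -0.71 with the block, adjusted p = 0.0337 and 0.0203), none was called after siPaf1, and the direct comparison called Ncoa6 up and Kdm6a, Dpy30 and Men1 down in siPaf1 relative to siCdc73. Dpy30, another core subunit, stood at 221.9 and 296.3 CPM in siPaf1 and 366.7 and 491.1 in siCdc73, with 281.9 and 372 in siCtrl (-0.73, adjusted p = 0.0149 with the block, 0.439 without). Men1, the menin subunit of the MLL complexes, stood at 117.3 and 113.1 CPM in siPaf1 and 175.1 and 199.5 in siCdc73 (-0.69, adjusted p = 0.0259 with the block, 0.398 without). The core subunits Dpy30 here and Wdr5 above are named because they were called in this comparison, so their shared direction adds nothing. The core subunit Ash2l was not called there (-0.03, adjusted p = 0.939 with the block).

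Of 6 other H3K36 methyltransferases, 5 were tested in RNA-seq, with 1 down for siPaf1 and 3 down for siCdc73, and 6 in 3'READS, with 1 up and 1 down for siPaf1 and 1 up and 2 down for siCdc73. Whsc1 (NSD2), which writes H3K36me2, fell in both assays after both knock-downs. Its RNA-seq level was 260.2 and 159.8 CPM in siCtrl, 110.2 and 84.8 in siPaf1 and 156.2 and 103.1 in siCdc73, with 235.9 in siSki8 (-1.08 and -0.69 with the block, adjusted p = 0.000676 and 0.0186), and in 3'READS the changes were -2.25 and -2.19 (adjusted p = 0.00319 and 0.00352). Smyd2 fell after siCdc73 in both assays (-0.85 and -1.10 with the block, adjusted p = 0.00408 and 0.0108), and was lower in siCdc73 than in siPaf1 in both. Ash1l fell after siCdc73 in RNA-seq (-0.68, adjusted p = 0.0224 with the block). Nsd1 rose in 3'READS, where siCtrl had 6.75 and 8.41 CPM, siPaf1 19.75 and 40.8, and siCdc73 14.3 and 27.3 (1.93 and 1.41, adjusted p = 0.000928 and 0.00679 with the block).

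Of the 4 partners of DOT1L, 2 were tested in RNA-seq and 4 in 3'READS. Mllt10 fell in RNA-seq, where siCtrl had 87.1 and 58.4 CPM, siPaf1 45.2 and 38.4, and siCdc73 56.5 and 31.9 (-0.78 and -0.73, adjusted p = 0.0203 and 0.0237 with the block), and Mllt1 rose in 3'READS (1.19 and 1.03, adjusted p = 0.0311 and 0.0478 with the block). Of 10 demethylases of H3K4 and H3K36, 2 rose after siPaf1 and 3 after siCdc73 among the 6 tested in RNA-seq, 4 and 3 rose among the 10 tested in 3'READS, and none fell. Their median changes were 0.42 and 0.46 in RNA-seq and 0.53 and 0.73 in 3'READS, beside 0.01 and -0.02, then 0.06 and 0.00, over all genes. The block called 16.3 and 19.4 percent of all genes up in RNA-seq and 9.74 and 10.8 percent in 3'READS. Kdm5b, which removes H3K4me3, rose in both assays after both knock-downs. In RNA-seq siCtrl had 50.45 and 47.4 CPM, siPaf1 270.1 and 215, siCdc73 265.3 and 212.2, and siSki8 43.2 (2.3 and 2.28, adjusted p = 2.38e-08 and 1.99e-08 with the block, 0.0835 and 0.0705 without). Kdm5a, of the same family, rose likewise (1.01 and 0.98 in RNA-seq, adjusted p = 0.00152 and 0.00161, and 1.11 and 1.08 in 3'READS, 0.0388 and 0.0395, all with the block). After siSki8, 0 genes of any of these lists were called in either assay.

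The calls on the lists were refitted without each library of siCtrl, siPaf1 and siCdc73 in turn. Of 41 blocked calls over the lists and comparisons, 12 were kept in all 6 fits and 29 were lost in at least 1. The kept calls were those of Kdm5b and Usp49 after both knock-downs in every assay where they were called, Whsc1 in 3'READS after both and in RNA-seq after siPaf1, Kdm5a in RNA-seq and Nsd1 in 3'READS after siPaf1, and Mllt6 in 3'READS between siPaf1 and siCdc73. Among the lost calls named above, the highest adjusted p was 0.263 for Whsc1 and 0.133 for Kdm5a in RNA-seq after siCdc73, 0.183 for Nsd1 after siCdc73, 0.0544 for Usp22, 0.68 for Usp7, 0.227 for Dpy30 and 0.293 for Men1. It was 0.48 for Kdm6a and 0.443 for Ncoa6 after siCdc73, 0.453 for Ash1l, 0.19 for Smyd2 in RNA-seq and 0.145 in 3'READS. Between siPaf1 and siCdc73 it was 0.26 for Smyd2 in RNA-seq and 0.191 in 3'READS, 0.373 for Ncoa6 and 0.15 for Kdm6a. For Mllt10 it was 0.162 and 0.346, for Mllt1 0.51 and 0.495, and for Kdm5a in 3'READS 0.453 and 0.367, after siPaf1 and siCdc73.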

How the data were processed

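RNA-seq and 3'READS libraries of C2C12 myoblasts (7 each) were grouped by the siRNA and batch in the labels. The authors aligned all libraries to mm9 (bowtie2, local alignment, version not given in the sources used here), kept unique hits, and deposited raw counts per RefSeq transcript (coding region) with RPKM values, and raw counts of PASS reads per pA site. RPKM relates these counts to coding length and to the uniquely mapped reads of the library. All per-sample columns were matched (0 unmatched). ChIP-seq samples of the series were not analysed here.

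Where a gene had several transcripts, the most counted one was used, and 3'READS genes by the sum of sense sites. Counts were tested in R 4.3.3 with edgeR 4.0.16 (TMM, filterByExpr, quasi-likelihood test, all 7 libraries), with DESeq2 1.42.0 as an alternative. The prior count was 2 for log2 CPM and the edgeR default in the fits. Tables and figures were made in Python 3.11.15. APA ratios were tested as isoform by knock-down interactions with 1 coefficient per library, at least 20 reads per library on average, and no sites under 5 percent. For antisense reads the minimum was 10 and for single sites 20. Single-library ratios had 0.5 added, and a count of 0 was bounded by 3 counts. Standard errors were taken from the change and its F statistic. The study's methods have no batch term, so the fit without it is the main one. Batch numbers pair the libraries by the labels, and batch differences correlated across genes with r of 0.620, 0.748 and 0.633 between groups in RNA-seq and 0.433, 0.610 and 0.432 in 3'READS.

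The tests were tested on simulated data with known changes, with and without a batch difference. With that difference, the fit without the block recovered 0 of 200 2-fold changes in RNA-seq and 0 of 200 in 3'READS. The blocked fit recovered 130 and 92 of 200. For 4-fold changes of ratios it recovered 117 of 200 3'UTR pairs, 62 of 200 single sites and 80 of 200 antisense ratios. No fit, with or without the block, can be read as showing that nothing changed.

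All members are named, with the siRNA targets, and from each pathway list at most 3 genes called with the block per direction and comparison. The members, lists and markers were chosen with earlier results of these data known. Alternatives were other scalings, no filter, DESeq2, the first transcript listed, the study's 1.4-fold rule with Fisher's exact p under 0.01 applied to pooled reads, no 5 percent filter, at least 100 reads per site, and leaving out each replicate. Leave-one-out (expression, 3'UTR-APA, single sites, lists), DESeq2 and library-size alternatives of the blocked fit were added after seeing the data. No protein or siRNA sequence is printed.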

Additional observations from a re-analysis of the deposited data

How the results depend on the processing

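Without the batch term, another scaling (RLE), no filter, DESeq2 and, in RNA-seq, the first transcript listed called no member and turned no expression change. With the block, DESeq2 called 4 members against 3 in RNA-seq for siCdc73, and in 3'READS for siCdc73 Ube2a was no longer called (1.26, adjusted p = 0.0652). RLE, no filter and the first transcript were not run with the block. The replicate block raised the count of members called from 0 to 3 for siPaf1 and 3 for siCdc73 in RNA-seq, 2 between siPaf1 and siCdc73, and 2, 3 and 1 in 3'READS, with 1 in 3'UTR-APA for siCdc73, 1 between the knock-downs and 1 single site for siCdc73. The paired fit also turned some uncalled values: Rnf40 RNA-seq for siSki8 was 0.27, Setd1b between siPaf1 and siCdc73 0.17, Rnf40 3'READS between them 0.095, Wdr5 3'UTR-APA for siSki8 0.91, and antisense Setd1a and Setd2 for siSki8 -0.58 and -0.34. With library size alone, uncalled values turned for Wdr5 RNA-seq in siSki8 (-0.041) and, between siPaf1 and siCdc73, for Ash2l (0.16), Rnf40 (0.040), Setd1b (0.099) and Ube2a (0.094) in RNA-seq and Rnf40 (0.15), Setd2 (0.056) and Wdr5 (0.042) in 3'READS. The pooled-read rule of 1.4-fold with Fisher's exact p under 0.01, which treats reads as replicates, called 3 members for siPaf1, 3 for siCdc73, 5 for siSki8 and 3 between siPaf1 and siCdc73, and turned Wdr5 in siSki8 (-0.056) and Ash2l (0.12), Rnf40 (0.058) and Setd1b (0.054) between the knock-downs. No intronic site of a member reached 100 reads (at most 55), so that minimum gave no value for single sites. Without the 5 percent filter 3 members could be tested for CDS-APA, against 0, and none was called. With the block, library size alone left 0 RNA-seq and 2 3'READS members called between siPaf1 and siCdc73. These alternatives of the block were chosen after seeing the data. The causes of these shifts were not tested. Leaving out 1 library at a time also moved the changes that were called only with the block, without turning any. Without the batch term, RNA-seq changes ran from 0.56 to 1.47 for Rnf40, 0.66 to 2.21 for Ube2a and 0.67 to 2.16 for Ube2b after siPaf1, and from 0.70 to 1.62, 0.87 to 2.29 and 0.51 to 1.61 after siCdc73. Between siPaf1 and siCdc73, Setd1a ran from -1.06 to -0.20 and Wdr5 from -1.21 to -0.42. In 3'READS, Rnf40 ran from 0.72 to 1.86 after siPaf1 and 0.42 to 1.93 after siCdc73, Ube2a from 0.40 to 1.86 after siCdc73, and Rnf20 from -1.79 to -0.66 between them. Wdr5 3'UTR-APA ran from 0.43 to 2.82 after siCdc73 and -2.73 to -0.83 between them, and the Setd1a intron 4 site from 2.81 to 6.93. With the block, moves over 1.5 times were those of Rnf40 3'READS after siPaf1 (0.81 without siPaf1 batch 2), Ube2a 3'READS after siCdc73 (0.80 without siCdc73 batch 2) and the Setd1a intron 4 site (2.70 without siCdc73 batch 2 and 6.51 without siCtrl batch 2). The following log2 ranges are of values that changed sign, none called without the batch term. For RNA-seq, siPaf1 against siCtrl, Setd1b ran from -1.07 to 0.66 and Wdr5 ran from -0.73 to 0.043. For RNA-seq, siCdc73 against siCtrl, Setd1a ran from -0.27 to 0.63, Setd1b ran from -1.72 to 0.72 and the count of blocked calls was 2 to 6. For RNA-seq, siSki8 against siCtrl, Rnf40 ran from -0.48 to 0.38 and the count of blocked calls was 0 to 1. For RNA-seq, siPaf1 against siCdc73, Ash2l ran from -0.47 to 0.40, Rnf40 ran from -0.41 to 0.12, Setd1b ran from -0.73 to 1.28, Ube2a ran from -1.07 to 0.75, Ube2b ran from -0.28 to 1.08 and the count of blocked calls was 0 to 2. For 3'READS, siPaf1 against siCtrl, Ash2l ran from -0.098 to 0.57, Dot1l ran from -0.53 to 0.44, Rnf20 ran from -0.48 to 0.65, Wdr5 ran from -0.70 to 0.78 and the count of blocked calls was 0 to 3. For 3'READS, siCdc73 against siCtrl, Setd1a ran from -0.27 to 0.46, Wdr5 ran from -0.32 to 0.95 and the count of blocked calls was 1 to 5. For 3'READS, siSki8 against siCtrl, Dot1l ran from -0.56 to 0.058, Rnf20 ran from -0.15 to 0.59 and Rnf40 ran from -0.31 to 0.83. For 3'READS, siPaf1 against siCdc73, Ash2l ran from -0.60 to 0.046, Rnf40 ran from -0.59 to 0.77, Setd2 ran from -0.43 to 0.32, Ube2a ran from -0.83 to 0.59, Ube2b ran from -0.0065 to 0.67, Wdr5 ran from -0.93 to 0.39 and the count of blocked calls was 0 to 2. For 3'UTR-APA, siPaf1 against siCtrl, Dot1l ran from -0.088 to 1.43 and Wdr5 ran from -1.36 to 1.03. For 3'UTR-APA, siCdc73 against siCtrl, the count of blocked calls was 0 to 1. For 3'UTR-APA, siSki8 against siCtrl, Dot1l ran from -0.082 to 1.35 and Wdr5 ran from -1.30 to 1.09. For 3'UTR-APA, siPaf1 against siCdc73, Ash2l ran from -0.11 to 0.27, Ube2b ran from -0.048 to 0.73 and the count of blocked calls was 0 in every fit. For single sites, siPaf1 against siCtrl, Setd2 intron 18 ran from -0.62 to 0.51 and Setd1a intron 13 ran from -1.02 to 1.053. For single sites, siCdc73 against siCtrl, Setd2 intron 18 ran from -0.71 to 1.14, Setd1a intron 13 ran from -1.85 to 0.22 and the count of blocked calls was 0 in every fit. For single sites, siSki8 against siCtrl, Setd1a intron 4 ran from -2.86 to 1.02 and Setd1a intron 13 ran from -0.54 to 1.53. With 2 libraries a group, leaving one out leaves a lone library that is assumed to vary like the other groups.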
